A study of Mus musculus with 6 samples.

Results

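The CXC chemokines described here are 8 genes, Cxcl1, Cxcl2, Cxcl3, Cxcl9, Cxcl10, Cxcl11, Cxcl14 and Cxcl16, taken by gene symbol from the 25124 genes of the deposited expression table. All 8 had a row, and each has a value in all 6 libraries. All libraries came from the mouse macrophage line RAW264.7, grown in medium with 25 mM glucose and used at fewer than 15 passages. Every library, controls included, was made from a derivative that had received a plasmid encoding Cas9 with no guide RNA, built as the comparison line for E4BP4 knockout cells. The 3 M1 samples had been given 100 ng/ml of LPS (lipopolysaccharide, a bacterial product sensed by Toll-like receptor 4) and 50 ng/ml of interferon-γ, and the 3 M0 samples neither. The sources used here do not give the length of the treatment. Nothing in the labels says that samples of a group came from separate cultures, and each p-value therefore reflects a spread that may be only technical.

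CXC chemokines are small secreted proteins named for a pair of cysteines separated by a single residue, and they steer leukocytes through G protein-coupled receptors. Cxcl1, Cxcl2 and Cxcl3 carry a glutamate-leucine-arginine motif before the cysteines, bind Cxcr2 and attract neutrophils, and NF-κB is a known activator of their genes in macrophages. Cxcl9, Cxcl10 and Cxcl11 lack that motif, bind Cxcr3 on activated T cells and natural killer cells, and are classical targets of interferon signalling. Cxcl16 is made as a membrane protein that binds Cxcr6 and can be shed, and Cxcl14 is a chemokine best known from epithelia at rest.

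Reads assigned to genes numbered 15615639 to 20283180 per library, which was 83.55% to 86.66% of the library totals in the file headers, and at a transcript length of 2000 bases 1 TPM (reads per transcript length, scaled to the library) stood for at least 26.5 reads. The deposited TPM values summed to 551257 to 555447 per M0 library and 568081 to 572349 per M1 library. These totals lie below the usual TPM total and differ between the groups. All 8 macrophage markers looked up were tested, and their summed level was 2230 to 2457 TPM in M0 and 1967 to 2003 TPM in M1. Of these, 4 rose and 4 fell, where 18.7% of all tested genes rose and 61.5% fell; after the rescaling described below 4 were higher and 2 lower, with the calls of Cd68 and Csf1r lost. Summed markers of T cells, B cells, neutrophils, dendritic cells, fibroblasts, epithelium and endothelium reached at most 5.85 TPM per list in any library. The neutrophil list held that highest sum, and its S100a9 and Mpo were at 0 in all 6 libraries, as were Cd3g and Cd8a of the T cell list and Krt8 and Krt18 of the epithelial list. In those 7 lists, 2 genes were tested: S100a8 fell from 5.29 ± 0.753 to 3.39 ± 0.453 TPM (SD, n = 3), a call lost after rescaling (limma adjusted p = 0.094), and the dendritic cell marker Zbtb46 fell from 1.44 ± 0.115 to 0.674 ± 0.184 TPM, having passed the filter through M0 alone. The untested dendritic cell markers had few reads over the M0 and M1 libraries: Xcr1 12 and 66, Clec9a 1 and 7, Siglech 2 and 2, Flt3 1 and 0. Untested genes of other lists went either way, such as fibroblast Dcn (1 and 83 reads) and endothelial Vwf (281 and 104). The part of such cells in the results was not tested.

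The bases just before the annotated starts are shown first, because members that rose together can be compared there letter by letter with Cxcl14, which fell, and Cxcl1, which gave no reads. RefSeq promoters (GRCm38.p6) matched 6 of the 8 genes, and Cxcl11 and Cxcl16 had no entry. The windows ran from 250 bases before to 50 bases after the start. They were searched on both strands for 4 motifs. These were the interferon-stimulated response element core (GAAA, any 2 bases, GAAA), the STAT site TTCNNNGAA (GAS), the NF-κB site (GGGA, any 4 bases, CC) and the AP-1 site TGANTCA. Of 32851 promoters of this length, 3.44% held the first, 8.30% the second, 20.7% the third and 7.81% the fourth. The 250 bases upstream are printed 5′ to 3′ on each gene's strand, in lower case, with matches to any of these motifs in capitals. They lie at chr5:90890995-90891244 (plus strand) for Cxcl1, chr5:90903649-90903898 (plus) for Cxcl2, chr5:92328080-92328329 (minus) for Cxcl9, chr5:92348890-92349139 (minus) for Cxcl10 and chr13:56296552-56296801 (minus) for Cxcl14.
Cxcl1: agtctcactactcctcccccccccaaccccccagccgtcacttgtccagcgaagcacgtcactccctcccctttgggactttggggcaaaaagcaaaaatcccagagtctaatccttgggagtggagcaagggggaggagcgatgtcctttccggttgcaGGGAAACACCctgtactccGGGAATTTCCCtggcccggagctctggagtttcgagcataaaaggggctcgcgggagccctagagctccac
Cxcl2: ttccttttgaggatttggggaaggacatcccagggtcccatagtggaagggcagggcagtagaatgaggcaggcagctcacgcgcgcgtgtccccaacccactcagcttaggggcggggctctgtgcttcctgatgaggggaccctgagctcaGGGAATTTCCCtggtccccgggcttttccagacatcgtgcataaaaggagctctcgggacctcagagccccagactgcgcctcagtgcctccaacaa
Cxcl9: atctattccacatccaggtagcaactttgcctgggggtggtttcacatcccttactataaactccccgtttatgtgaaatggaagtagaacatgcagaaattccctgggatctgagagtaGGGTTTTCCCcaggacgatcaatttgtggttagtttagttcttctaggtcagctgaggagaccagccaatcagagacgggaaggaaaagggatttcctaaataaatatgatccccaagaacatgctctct
Cxcl10: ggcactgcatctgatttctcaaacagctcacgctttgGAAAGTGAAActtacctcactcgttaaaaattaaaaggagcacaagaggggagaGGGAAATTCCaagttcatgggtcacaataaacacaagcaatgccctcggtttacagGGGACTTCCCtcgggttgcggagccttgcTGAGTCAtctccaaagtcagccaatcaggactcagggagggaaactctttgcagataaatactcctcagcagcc
Cxcl14: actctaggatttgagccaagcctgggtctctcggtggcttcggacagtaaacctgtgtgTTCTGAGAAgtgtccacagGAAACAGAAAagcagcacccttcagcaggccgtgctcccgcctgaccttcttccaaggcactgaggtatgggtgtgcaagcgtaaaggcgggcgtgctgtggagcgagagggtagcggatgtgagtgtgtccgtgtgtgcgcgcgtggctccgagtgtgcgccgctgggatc
Cxcl1, Cxcl2 and Cxcl3 shared the same run of 11 bases, GGGAATTTCCC, in which an NF-κB match on each strand overlapped. It lay at -71 to -61 from the start in Cxcl1, -97 to -87 in Cxcl2 and -73 to -63 in Cxcl3. Cxcl1 held a further NF-κB match at -90 to -81. Cxcl10 held a response element core at -213 to -204, NF-κB matches at -159 to -150 and, on both strands at the same bases, -103 to -94, and an AP-1 match at -74 to -68. Cxcl9 held an NF-κB match at -130 to -121 and an AP-1 match at 32 to 38, after the start and outside the printed bases. Cxcl14 held a GAS match at -191 to -183 and a response element core at -172 to -163, and no NF-κB match. These are matches of letters in this window, not binding sites.

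**Figure D1:**
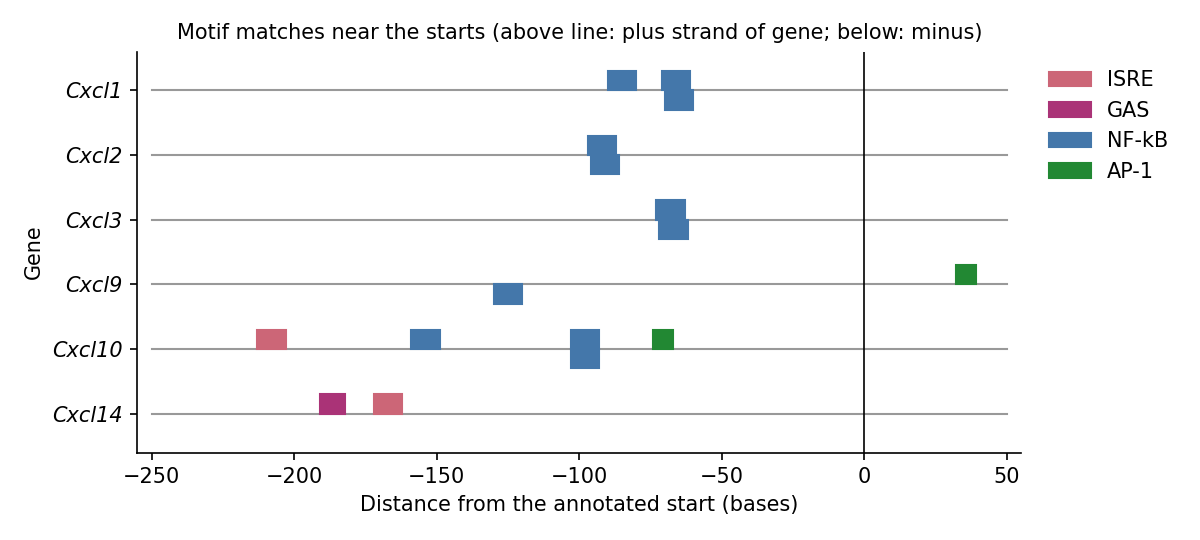
Motif matches in the 6 CXC chemokine promoters of the RefSeq table, by distance in bases from the annotated start (0); boxes above a line are matches on the gene's own strand and boxes below it on the other strand. The paired NF-κB boxes of Cxcl1, Cxcl2 and Cxcl3 lie between -97 and -61, and only Cxcl10 and Cxcl14 show a response element core.

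M1 was compared with M0 to see how these transcripts differ after LPS with interferon-γ. Of the 8 genes, 5 rose in M1 (Cxcl2, Cxcl9, Cxcl10, Cxcl11 and Cxcl16), 1 fell (Cxcl14), and Cxcl1 and Cxcl3 were too low to be tested. Across all 11297 tested genes, 18.7% were called higher, 61.5% lower and 80.2% in either direction. Calls came from limma on log2(TPM + 1), at a Benjamini-Hochberg adjusted p below 0.05. The 3 libraries of each group did not overlap for any of the 6 tested members, where every M1 library was above every M0 library for 19.6% of tested genes and below for 61.8%. Only Cxcl2, Cxcl10 and Cxcl16 passed the filter of 1 TPM in at least 3 libraries in both groups. Cxcl9 and Cxcl11 passed through M1 alone and Cxcl14 through M0 alone, so these had to differ and the count of calls supports nothing by itself. The median difference of all tested genes was -0.31 on the log2 scale, and 0.02 after rescaling of TPM by median-of-ratios factors, with which 38.1% were higher and 35.4% lower. All 6 tested members kept their call and direction after that rescaling. The RNA is from bulk samples, in which more cells expressing a gene and more RNA per cell cannot be told apart.

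**Figure D2:**
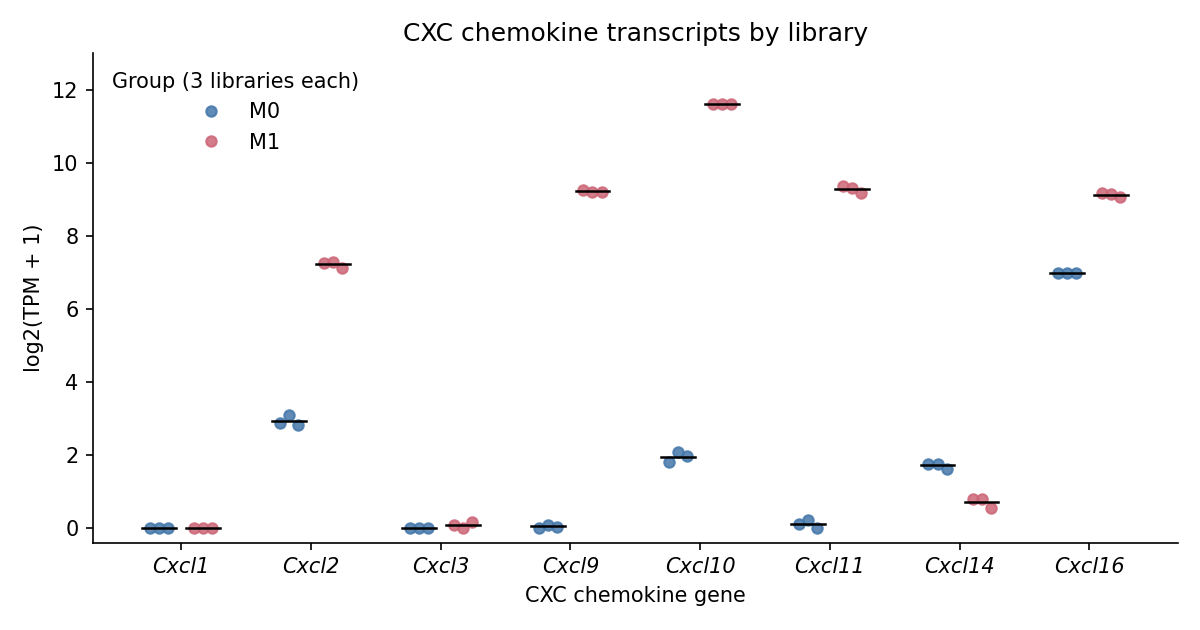
Levels of the 8 CXC chemokine transcripts as log2(TPM + 1), 1 point per library (3 M0 in blue, 3 M1 in red) with the group mean as a bar. Cxcl9, Cxcl10 and Cxcl11 go from below 3.2 TPM in every M0 library to above 573 TPM in every M1 library, Cxcl14 is lower in M1, and Cxcl1 lies at 0 throughout.

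The Cxcr3 ligands reached the highest levels. Cxcl10 (NM_021274, chromosome 5, 92346639 to 92348889, minus strand, mm10; 4 exons in the GENCODE M21 transcript) stood at 2.50, 3.20 and 2.90 TPM in M0 replicates 1 to 3 and at 3105, 3128 and 3106 TPM in M1 replicates 1 to 3. The 3 M1 libraries lay close together, and no library of either group came near the other group. Between 42 and 53 reads per M0 library and 51944 to 58886 reads per M1 library stood behind these levels. The ratio of mean TPM was 1087, and the fitted difference was 9.66 on the log2(TPM + 1) scale (SE 0.06, limma adjusted p = 1.8e-16), the third largest increase of the 11297 genes tested at this pseudocount. By level, Cxcl10 ranked 7 or 8 among all genes in each M1 library, against 9753 to 10046 in the M0 libraries. Its reads made up 0.278% to 0.290% of all reads in genes in M1.

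Cxcl9 (NM_008599, chromosome 5, 92321331 to 92328079, minus strand), the chemokine first known as a monokine induced by interferon-γ, was listed at 0, 0.068 and 0.026 TPM in the M0 libraries and at 606, 586 and 588 TPM in the M1 libraries. The M0 level rested on 0, 3 and 1 reads, where a count of 0 allows up to 0.0657 TPM, and the M1 level on 29480, 29215 and 26074 reads. With so few reads in M0, the pooled ratio of 18985 had a 95% exact counting interval of 7415 to 69681. The fitted difference was 9.17 (SE 0.05, limma adjusted p = 1.4e-16), which the pseudocount of 1 TPM holds down. That pseudocount also evens out the M0 values, and with 0.1 the SE was 0.17 (limma adjusted p = 1.3e-10). Cxcl9 passed the filter through M1 alone and had to differ.

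Cxcl11 (NM_019494, chromosome 5, 92359545 to 92363277, minus strand) was listed at 0.082, 0.171 and 0 TPM in M0 and at 656, 628 and 573 TPM in M1. The M0 libraries held 2, 4 and 0 reads, and the M1 libraries 16946, 16641 and 13491. The pooled ratio was 7029 (95% exact counting interval 3229 to 19155) and the fitted difference 9.16 (SE 0.07, limma adjusted p = 9.7e-16). With a pseudocount of 0.1 the SE was 0.41 (limma adjusted p = 1.1e-05). Cxcl11 too passed the filter through M1 alone and had to differ. GENCODE M21 lists the gene as a polymorphic pseudogene, since the C57BL/6 reference allele is known not to encode a working protein, and the authors' deposited table of fold changes uses the non-coding accession NR_038116 for it. RAW264.7 derives from another strain, BALB/c, and the transcript level says nothing of the protein.

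Within M1, the 3 Cxcr3 ligands kept similar proportions in every library. Cxcl10 stood above Cxcl9 by 5.12, 5.34 and 5.28 times in M1 replicates 1 to 3 on the TPM scale, which accounts for transcript length, and above Cxcl11 by 4.74, 4.98 and 5.42 times. Cxcl11 and Cxcl9 lay at ratios of 1.08, 1.07 and 0.974, and their ranges over the M1 libraries overlapped.

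Among the neutrophil-attracting ligands, Cxcl2 alone gave more than 3 reads over all libraries. Cxcl2 (NM_009140, chromosome 5, 90903899 to 90905938, plus strand), also called MIP-2, had 6.37, 7.60 and 6.10 TPM in M0 and 151, 155 and 138 TPM in M1. The groups stood far apart, and M1 replicate 3 was the lowest of the M1 libraries. The ratio of means was 22.2 and the fitted difference 4.28 (SE 0.08, limma adjusted p = 1.2e-12), the 85th largest increase.

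Cxcl1 (NM_008176, chromosome 5, 90891245 to 90893115, plus strand), the chemokine KC, was listed at 0 in all 6 libraries. A count of 0 allows at most 0.185 to 0.240 TPM per library (3 reads, counting error only). None of the 72 ribosomal protein genes looked up was at 0 in any library, which says nothing on why Cxcl1 was. Of all 25124 genes, 5892 were at 0 in all 6 libraries. None of the 904 windows of 50 bases in the Cxcl1 transcript occurred in a transcript of another gene in GENCODE M21, and the table's row lies inside the GENCODE gene. Its upstream bases, printed above, hold the same 11-base NF-κB run as those of Cxcl2, whose start lies 10783 bases past the end of Cxcl1.

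Cxcl3 (NM_203320, chromosome 5, 90786101 to 90788093, plus strand) was at 0 in the 3 M0 libraries and at 0.059, 0 and 0.129 TPM in the M1 libraries, from 1, 0 and 2 reads. Both groups lay at or under the limit that a count of 0 allows, so no fold is given. Cxcl2 and Cxcl3 share stretches of sequence: 61 of the 1060 windows of 50 bases in the Cxcl2 transcript, or 5.75%, were found in Cxcl3 and in no other gene. Reads from such stretches cannot be assigned to either gene by sequence.

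Cxcl16 (NM_023158, chromosome 11, 70455189 to 70459984, minus strand), which also acts as a scavenger receptor for oxidised lipoprotein, was the member with the highest level at rest. It had 125, 126 and 125 TPM in M0 and 573, 563 and 533 TPM in M1. The groups did not overlap, and M1 replicate 3 was again the lowest of its group. The ratio of means was 4.44 and the fitted difference 2.14 (SE 0.04, limma adjusted p = 3.0e-12), placing it 285th among increases. The 552 bases at the 5′ end of Cxcl16 overlap Zmynd15, a gene on the opposite strand. GENCODE exons of the 2 genes share those 552 bases, 18.3% of all annotated Cxcl16 exon bases and 12.5% of those of Zmynd15. The Cxcl16 row of the TPM table has a length of only 1486 bases, of which 552 bases would be 37.1%. Zmynd15 moved with Cxcl16, from 21.0 ± 0.377 to 83.7 ± 3.15 TPM (mean ± SD, n = 3), on 2436 and 10871 reads per group against 8225 and 40800 for Cxcl16. The sources used here do not say whether counting used strand, so reads from the shared bases cannot be told apart, and their part in either change was not tested.

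Cxcl14 (NM_019568, chromosome 13, 56288643 to 56296551, minus strand) was the member that fell. It had 2.37, 2.39 and 2.07 TPM in M0 and 0.720, 0.734 and 0.467 TPM in M1. Every M1 library lay below every M0 library, on 13 to 23 reads each against 50 to 68. The mean in M0 was 3.56 times that in M1, and the fitted difference was -1.002 (SE 0.09, limma adjusted p = 1.2e-06). Cxcl14 passed the filter through M0 alone and had to differ. It ranked 1288th among decreases. Its upstream window held the GAS match and response element core shown above. Cxcl10 also held a response element core, and Cxcl2 and Cxcl9 held no match to either pattern. Only these exact patterns were searched, in this window, so other forms of such elements would be missed. Any part of the motifs in the changes was not tested.

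**Figure D3:**
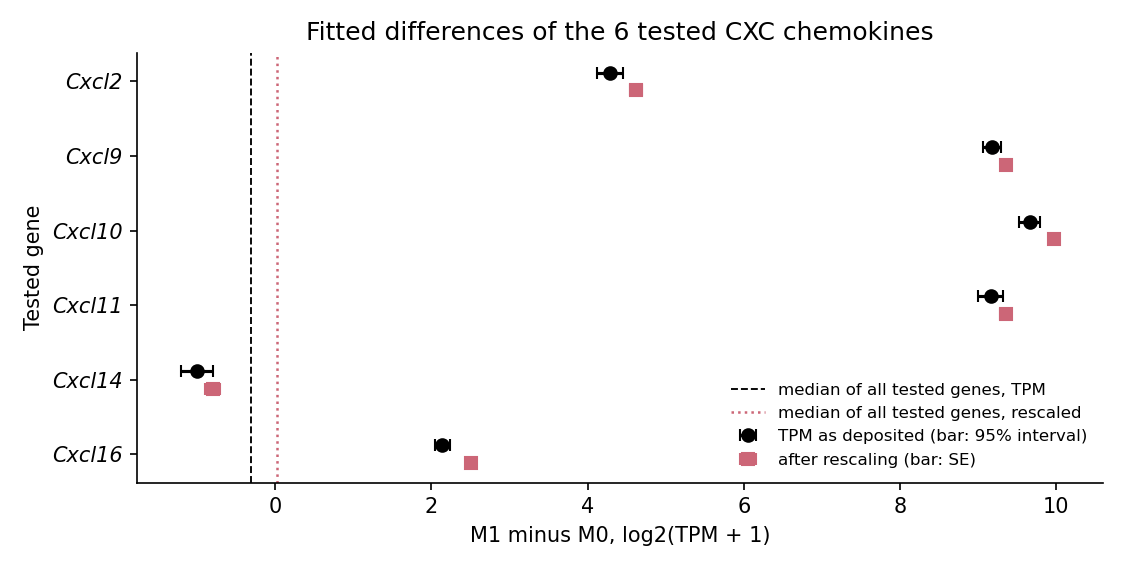
Fitted M1 minus M0 differences on the log2(TPM + 1) scale for the 6 tested CXC chemokines, on TPM as deposited (black circles, bars 95% intervals) and after median-of-ratios rescaling (red squares, bars SE); vertical lines mark the median of all tested genes on each scale, -0.31 and 0.02. The Cxcr3 ligands lie above 9, Cxcl2 at 4.28, Cxcl16 at 2.14 and Cxcl14 at -1.002 on the TPM scale.

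The order of the members by level changed between the groups. In M0 the means ran from Cxcl16 (125 ± 0.868 TPM, SD, n = 3 in this and the following values) through Cxcl2 (6.69 ± 0.800), Cxcl10 (2.86 ± 0.351) and Cxcl14 (2.28 ± 0.179) to Cxcl11, Cxcl9, Cxcl3 and Cxcl1 below 0.1 TPM. Each of the first 4 stood apart from its neighbour in every library, and the last 4 overlapped. In M1 the order was Cxcl10 (3113 ± 12.9 TPM), Cxcl11 (619 ± 42.1), Cxcl9 (593 ± 11.1), Cxcl16 (556 ± 20.8), Cxcl2 (148 ± 8.94) and Cxcl14 (0.64 ± 0.15), with Cxcl3 and Cxcl1 last. The ranges of Cxcl11 and Cxcl9 overlapped there, as did those of Cxcl3 and Cxcl1, and the lowest Cxcl11 library (573.0 TPM in M1 replicate 3) lay just below the highest Cxcl16 library (573.1 TPM in M1 replicate 1).

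The summed level of the 8 transcripts was 137 ± 2.08 TPM in M0 and 5031 ± 81.1 TPM in M1 (SD, n = 3). Cxcl16 made up 90.4% to 91.9% of that sum in the M0 libraries and 10.8% to 11.3% in the M1 libraries, although its own level was higher in M1. Cxcl10 went from 1.84% to 2.29% of the sum in M0 to 61.0% to 62.9% in M1. Cxcl9 and Cxcl11 made up 11.6% to 11.9% and 11.6% to 12.9% of the M1 sum, and Cxcl2 2.80% to 3.07%.

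**Figure D4:**
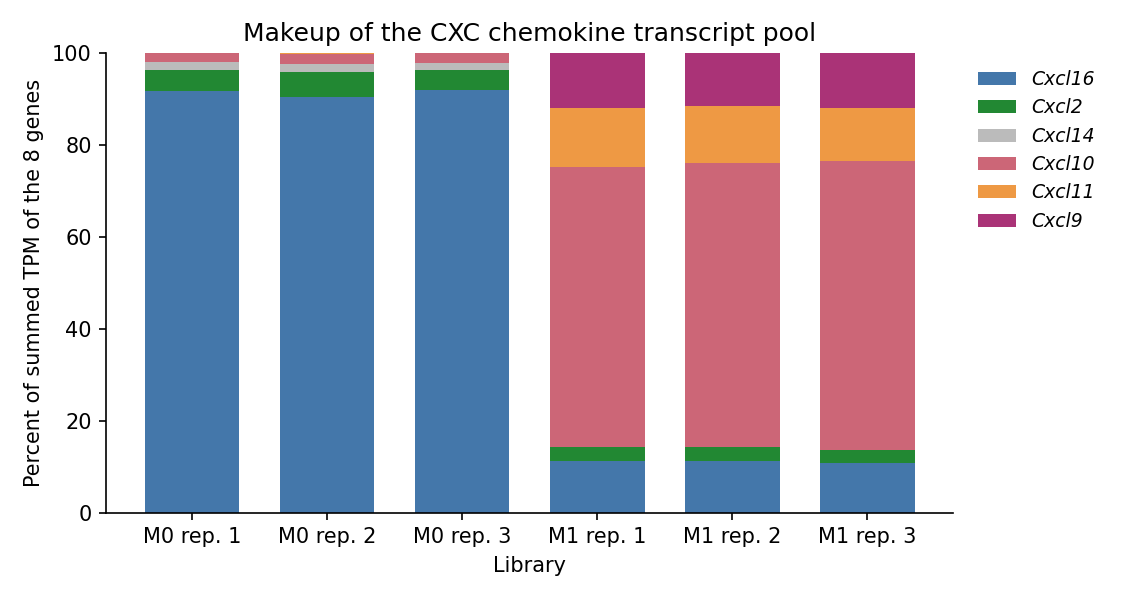
Percent of the summed TPM of the 8 CXC chemokines held by each gene, 1 bar per library; Cxcl1 and Cxcl3 are too low to be seen. The abundant CXC ligand Pf4 is not among the 8 and is left out. The blue Cxcl16 part fills 90.4% to 91.9% of the M0 bars and 10.8% to 11.3% of the M1 bars, where Cxcl10 takes 61.0% to 62.9%.

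The authors' deposited table of fold changes, in which positive values are higher in M1, gave log2 fold changes of 14.57 for Cxcl9, 12.95 for Cxcl11, 10.45 for Cxcl10, 4.83 for Cxcl2, 2.57 for Cxcl16 and -1.46 for Cxcl14. It placed Cxcl9 above Cxcl10, whereas the fit on log2(TPM + 1) placed Cxcl10 first. That order turned with the pseudocount: with 0.5 in place of 1 the fitted log2 differences were 10.13 for Cxcl9, 10.06 for Cxcl11 and 9.86 for Cxcl10, and with 0.1 they were 12.17, 11.83 and 10.04. Cxcl3 had 2.68 with an adjusted p of 1 in the authors' deposited table, and Cxcl1 had no fold change. By adjusted p under 0.05 the authors' deposited table thus called 5 members higher and 1 lower, where 22.9% and 20.7% of its 18744 genes with a fold change were called in those directions. Its rows for Cxcl11 and Cxcl16 use other transcript ends than the TPM table, with lengths of 1597 and 2439 bases in place of 1540 and 1486.

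Of the members, 6 lie on chromosome 5, in 2 groups. Around Cxcl3, within 50 kb, the chemokine genes Cxcl5 and Cxcl15 were at 0 in all libraries. Ppbp, which encodes a platelet chemokine, had 0.735 to 0.981 TPM in M0 and 0.166 to 0.304 TPM in M1, too low to be tested. Pf4, platelet factor 4, another CXC chemokine known from platelets and myeloid cells, had 437, 373 and 423 TPM in M0 and 316, 320 and 276 TPM in M1. Every M1 library was below every M0 library for Pf4, and the gene was called lower (log2 difference -0.43, SE 0.07, limma adjusted p = 0.00020). After rescaling the difference was -0.07 and not called (limma adjusted p = 0.48). In M0 the mean of Pf4, 411 ± 33.8 TPM, stood above that of Cxcl16. Beyond Cxcl2, the folate enzyme gene Mthfd2l fell from 3.59 ± 0.479 to 2.04 ± 0.254 TPM.

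Near the Cxcr3 ligands, Sdad1 rose from 10.3 ± 0.145 to 17.3 ± 0.308 TPM and Naaa, which encodes a lysosomal amide hydrolase, from 8.16 ± 0.734 to 11.4 ± 0.0590 TPM, ratios of 1.68 and 1.39. Art3 had 0.476 ± 0.226 and 0.560 ± 0.0624 TPM and was too low to be tested. Counting matches on either strand, 84 of the 1045 windows of 50 bases in the Cxcl10 transcript occur in GENCODE transcripts of Art3. The Art3 row lies 39244 bases from Cxcl10, on the opposite strand. Around Cxcl14, Neurog1 was at 0 and 4930550C17Rik did not exceed 0.094 TPM in any library.

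The 3 remaining CXC ligands on the list gave few reads: Cxcl12 had 3 and 2 reads over the M0 and M1 libraries, Cxcl13 had 0 and 1, and Cxcl17 had 2 and 0. Of the 7 other CXC ligands looked up, 1 was therefore tested, Pf4. Among 8 receptors, 3 were tested, of which 2 fell and 1 was not called, where 61.5% of all tested genes fell. Both that fell passed the filter through M0 alone, so their calls support nothing by number. Cxcr3, the receptor of Cxcl9, Cxcl10 and Cxcl11, had 10.1, 9.05 and 10.3 TPM in M0 and 0.743, 1.52 and 0.815 TPM in M1. All M1 libraries lay below all M0 libraries, and the log2 difference was -2.43 (SE 0.13, limma adjusted p = 2.8e-08). Cxcr4, the receptor of Cxcl12, had 16.9 to 18.8 TPM in M0 and 0.461 to 0.759 TPM in M1 (log2 difference -3.57, limma adjusted p = 1.2e-11). Cxcr5, the receptor of Cxcl13, had a mean of 2.52 ± 0.196 TPM without and 2.63 ± 0.359 TPM with the treatment, and was higher by the test only after rescaling (log2 difference 0.30, limma adjusted p = 0.014). Cxcr6, the receptor of Cxcl16, was below the filter, with 5 reads in M0 and 27 in M1. Cxcr1, Cxcr2 and Ackr3 had 2 reads each in M0 and 0 in M1, and Ackr1 had 0 in both.

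The listed genes that carry or restrain the interferon signal mostly rose. Of 14 on the list, all tested, 12 rose and 2 fell, against 12 and 1 after rescaling, with a median log2 difference of 1.23 (1.59 rescaled) beside -0.31 (0.02 rescaled) for all tested genes. Of all tested genes 18.7% rose and 61.5% fell (38.1% and 35.4% rescaled), and these shares also stand beside the lists that follow. Ifnb1 passed the filter only through M1 and had to differ. Socs1 reached 1 TPM in every M1 library but not in M0 replicate 1 (0.889 TPM). Irf1, a transcription factor that activates interferon targets, rose from 20.5 ± 0.690 to 478 ± 4.76 TPM (log2 difference 4.47). Socs1, which blocks Janus kinases, rose from 1.09 ± 0.182 to 198 ± 5.77 TPM (log2 difference 6.58). The receptor chain Ifngr1 fell from 24.2 ± 0.378 to 11.6 ± 0.121 TPM. Ifnar1, a chain of the type I interferon receptor, went from 18.3 ± 0.416 to 14.6 ± 0.203 TPM, a call that was lost after rescaling (limma adjusted p = 0.53).

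Among genes between LPS and NF-κB, some rose and some fell. Of 28 tested among 29, 13 rose, 8 fell and 7 were not called (over all tested genes, 18.7% were higher and 61.5% lower in M1), against 21 and 4 after rescaling, and the median log2 difference was 0.11 (0.46 rescaled). The NF-κB cofactor Nfkbiz rose from 5.70 ± 0.0650 to 75.8 ± 6.89 TPM, and Tnfaip3, an inhibitor of the pathway, from 3.61 ± 0.194 to 51.0 ± 2.54 TPM. The receptor Tlr4 fell from 26.6 ± 1.68 to 7.18 ± 0.425 TPM and its adaptor Ticam2 from 3.69 ± 0.406 to 1.15 ± 0.142 TPM. Cd14, the co-receptor and the most abundant gene not called, had a mean of 637 ± 5.66 TPM without and 650 ± 7.96 TPM with the treatment, with a higher call after rescaling (log2 difference 0.39).

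Regulators of chemokine mRNA stability were all tested. Of the 11, 5 rose, 4 fell and 2 were not called (over all tested genes, 18.7% were higher and 61.5% lower in M1), against 7 and 3 after rescaling, with a median log2 difference of 0.06 (0.41 rescaled). Zc3h12a, an endonuclease that cuts inflammatory mRNAs, rose from 3.39 ± 0.155 to 41.9 ± 2.82 TPM and the RNA-binding protein gene Arid5a from 2.46 ± 0.0573 to 24.7 ± 1.11 TPM. Zfp36l2 and Zfp36l1, which bind AU-rich elements and speed decay, both fell, Zfp36l2 from 90.3 ± 7.17 to 13.7 ± 0.766 TPM and Zfp36l1 from 47.4 ± 2.39 to 9.94 ± 0.538 TPM. Their relative Zfp36, which has the same function and was chosen after its values were seen, rose from 26.6 ± 0.758 to 184 ± 10.98 TPM. Srsf1 was the most abundant gene not called on the TPM scale, at 126 ± 3.64 TPM (M0) and 124 ± 3.85 TPM (M1), with a higher call after rescaling (log2 difference 0.34).

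Of 14 genes for proteases that cut or shed chemokines and their regulators, 8 were tested, and 4 rose, 3 fell and 1 was not called (over all tested genes, 18.7% were higher and 61.5% lower in M1), against 5 and 2 after rescaling, with a median log2 difference of 0.08 (0.43 rescaled). Rhbdf2, which brings the sheddase Adam17 to the surface, rose from 30.7 ± 0.668 to 98.6 ± 4.58 TPM. Mmp12, a macrophage elastase, rose from 448 ± 39.5 to 593 ± 38.1 TPM. Adam10, a sheddase of Cxcl16, fell from 51.2 ± 4.64 to 33.7 ± 2.91 TPM, and Mmp9 from 35.8 ± 0.721 to 19.6 ± 0.960 TPM. Anpep had 13.3 ± 0.864 and 12.9 ± 1.57 TPM, with the opposite sign after rescaling, where it was called higher (log2 difference 0.29). Dpp4, which trims Cxcl9, Cxcl10 and Cxcl11 at their amino end, had 1 and 2 reads over the M0 and M1 libraries.

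**Figure D5:**
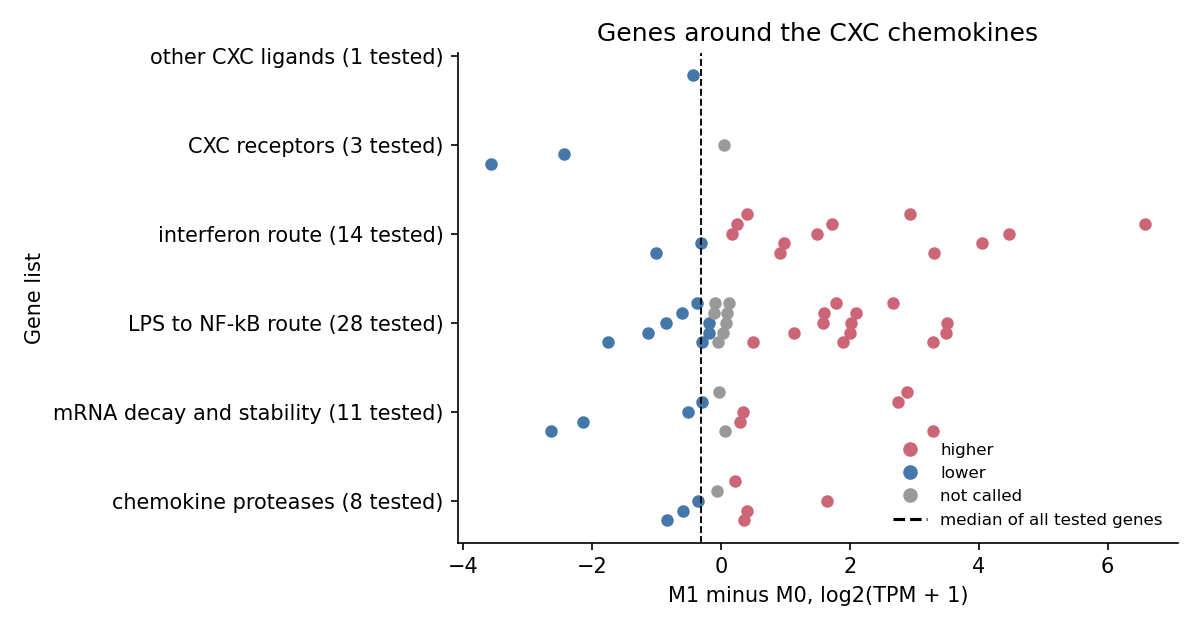
M1 minus M0 difference on the log2(TPM + 1) scale of each tested gene in 6 lists around the CXC chemokines, coloured by its call on the TPM scale, with the median of all tested genes (-0.31) as a dashed line. Most interferon route genes lie to the right of the line, and Cxcr3 and Cxcr4 lie at -2.43 and -3.57. Pf4, the only other CXC ligand tested, lies at -0.43, and the remaining lists spread to both sides.

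The genes closest to each tested member over the 6 libraries were found by Euclidean distance between log2(TPM + 1) values, among 10457 genes that left out the members themselves. Closest to Cxcl9 were Gbp5 and Iigp1, interferon-inducible GTPases, at distances of 0.20 and 0.21, and among these non-members the same 2 genes were closest to Cxcl11, at 0.34 and 0.22. Gbp2b was closest to Cxcl10 (0.58), with the next gene, Rsad2, much further away at 2.13. Cxcl2 lay nearest to Ifi44l (0.45) and Ifi211 (0.56), Cxcl16 to H2-Q4 (0.75) and Prdx5 (0.78), and Cxcl14 to Fam161a (0.18) among the genes reported. With 2 groups of 3 libraries, this distance reflects little more than the level in each group.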

How the data were processed

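RNA from 6 samples was measured. Libraries used poly(A)-selected RNA, per the labels' protocols. Build mm10, HOMER 4.11.1, STAR 2.7.5a, bcl2fastq and DESeq2 appear in the submitters' processing notes, without stated roles. The authors deposited TPM per gene and library, per the file headers, and a second table with log2 values per library (transform not stated, not used here), log2 fold changes, p-values and adjusted p-values. Groups came from the labels, which name no batch.

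TPM times transcript length was a whole multiple of 1 value per library, within 0.1, for 99.8% or more of values above 0, which gave the reads. Counting intervals and limits cover counting error only. No replicate pair agreed within sampling noise: chi-square over its degrees of freedom was 1.55 to 7.90.

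limma 3.58.1 (R 4.3.3; trend and robust empirical Bayes, two-sided) was fitted to log2(TPM + 1) for the 11297 genes that reached 1 TPM in at least 3 libraries, with Benjamini-Hochberg adjustment over all of them and calls under 0.05. The procedure was run on simulated counts in which far fewer genes changed than were called here. That run does not show how it performs on these data. Alternatives were other pseudocounts and filters, median-of-ratios rescaling, no trend or robust options, a replicate block and leaving out each library. Members, lists and tests were chosen with earlier results of these data known. In each list the 2 largest called changes in each direction and the most abundant gene not called were named; all other ligands and receptors could be named, as could all genes within 50 kb of a member, or only overlapping ones where there were more than 5. For each tested member the 2 genes nearest in level, leaving out the members, predicted genes and small RNAs, were named. Some genes that these rules take in are not reported here. No set test was run. The protein comparison that had been planned was not done, since protein sequences are not used here.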

Additional observations from a re-analysis of the deposited data

How the results depend on the processing

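All 6 tested members kept their direction and stayed called under every alternative in which they were tested. Cxcl9 and Cxcl11 had passed the filter through M1 alone and Cxcl14 through M0 alone, so these had to differ. Of all tested genes, 80.2% were called in the main fit, so the number of calls kept supports nothing by itself. Cxcl14 was not tested with a filter of 5 TPM. Over the alternatives, the log2 difference ran from 9.59 to 10.04 for Cxcl10, 9.15 to 12.17 for Cxcl9, 9.10 to 11.83 for Cxcl11, 4.23 to 4.62 for Cxcl2, 2.12 to 2.50 for Cxcl16 and -1.70 to -0.80 for Cxcl14. The high ends of Cxcl9 and Cxcl11 came with a pseudocount of 0.1, the construction of which lets genes near 0 move further. For the untested Cxcl3 the log2 difference of 0.09 became 0.62 with a pseudocount of 0.1 and 0.16 with 0.5, and with no filter its limma adjusted p was 0.12. After median-of-ratios rescaling 4305 genes were higher and 4002 lower, against 2111 and 6944 on the TPM scale.

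The labels number the replicates 1 to 3 in both groups without saying what a number shares. Deviations from the group means of same-numbered libraries correlated at 0.07, -0.08 and 0.04 over genes, and those of unlike-numbered libraries at -0.18 to 0.15. With 3 libraries per group these values can neither show nor exclude pairing. The numbers were not taken as pairs because the labels state no pairing. With a replicate block 2143 genes were higher and 7016 lower, and no member's call changed. Depth limits Cxcl1, Cxcl3 and the M0 levels of Cxcl9 and Cxcl11, where 0 to 4 reads per library were counted.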

Other observations

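The pentamer ATTTA, the core of AU-rich elements through which unstable mRNAs are recognised, was counted in the 3′ UTRs of the members' GENCODE M21 transcripts. Cxcl2 held 11 in 734 bases, Cxcl1 7 in 592 bases and Cxcl3 5 in 645 bases. Per 1000 bases these are 15.0, 11.8 and 7.75, beside a median of 1.35 over the longest 3′ UTR of 19925 genes, of which 0.211%, 0.472% and 2.10% reached as high a density. Cxcl10 held 2 in 729 bases, Cxcl16 2 in 1421, Cxcl9 3 in 2452, Cxcl11 1 in 1218 and Cxcl14 0 in 1149. In the same order the densities per 1000 bases were 2.74, 1.41, 1.22, 0.82 and 0. Of the genes, 25.6%, 48.8%, 52.6%, 61.0% and 100% reached as high a density. The count describes sequence, not stability.

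M1 replicate 3 gave the lowest M1 value for Cxcl2, Cxcl11, Cxcl14 and Cxcl16, but not for Cxcl9 or Cxcl10.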
